A study of Mus musculus with 51 samples.

Results

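The HOX cluster genes are the 39 homeodomain transcription factors of the clusters a, b, c and d, taken here by symbol as every measured gene named Hox, a cluster letter and a paralog number, which gave 39 of 24564 genes. Their RNA was compared between neurons with and without a working Polycomb repressive complex 2 (PRC2) across 8 groups of sorted adult mouse midbrain neurons. Cluster a held 11 members, cluster b 10, cluster c 9 and cluster d 9. By paralog number, 12 members fell in groups 1 to 4, 11 in groups 5 to 8 and 16 in groups 9 to 13.

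RNA was measured by Smart-seq2, a full-length method for small amounts of RNA, in 51 libraries of neurons isolated by fluorescence-activated cell sorting, each from 1 animal. Midbrain dopaminergic (mDA) neurons came from the DatCreEed strain and serotonergic (5HT) neurons from the SertCreEed strain, and in each strain the labels set a PRC2 mutant against wt animals. Eed is a core subunit of PRC2, and Dat and Sert are the dopamine and serotonin transporters, so each Cre driver is named for a transporter of that neuron type. Whether wt animals carried Cre, and which part of Eed was deleted, is not given in the sources used here. The mDA groups held 9 wt and 10 mutant animals at 4 months and 8 wt and 8 mutant animals at 8 months, of both sexes. Each 5HT group (wt and mutant at 4 and at 8 months) held 4 animals, also of both sexes. The mDA libraries came from 3 sequencing sets. At 4 months the 3 wt animals of set 1 were male and the 4 mutants of set 1 female, so that sex and genotype cannot be told apart within that set. At 8 months the 2 libraries of set 3, animals C250 and D833, were wt only and entered the genotype comparison only through the terms for sex and spread. Strain and neuron type cannot be told apart. Every 5HT library was labelled set 1, a label that mDA libraries of each group also carried. Whether a set label means the same run in both strains and at both months is not given in the sources used here.

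HOX genes lie side by side in their clusters, and in the embryo they are switched on in the order of that arrangement and so specify position along the body axis. The low paralog numbers are used in the hindbrain and neck and the high ones toward the lumbar region, tail, limb ends and genital tract. The midbrain lies in front of the HOX-expressing domain. PRC2 methylates lysine 27 of histone H3 across silent HOX clusters, which are among the best known targets of Polycomb repression.

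Promoters are printed for members chosen by their values in 8-month mDA mutants. Hoxd13 had the second largest and Hoxa9 the smallest rise of the 22 tested members. Hoxd10 had the highest level and Hoxd1 the lowest of all 39 members. The tested member with the largest rise, Hoxc6, has no entry. The ranks of Hoxc6 and Hoxd13 rest on fitted fold changes that leave out wt animal C250. Each window runs from 250 bases before to 50 bases after an annotated start, taken from RefSeq for GRCm38.p6 and written 5′ to 3′ on the strand of the gene, with CG dinucleotides in capitals.

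Hoxd13, chr2:74667975-74668274, plus strand: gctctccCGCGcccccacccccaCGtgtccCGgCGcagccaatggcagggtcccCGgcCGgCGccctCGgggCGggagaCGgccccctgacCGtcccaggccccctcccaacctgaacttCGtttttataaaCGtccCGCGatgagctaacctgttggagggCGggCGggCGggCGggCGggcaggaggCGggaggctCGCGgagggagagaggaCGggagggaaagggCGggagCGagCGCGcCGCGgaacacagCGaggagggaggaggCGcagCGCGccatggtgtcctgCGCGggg

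Hoxa9, chr6:52227321-52227620, minus strand: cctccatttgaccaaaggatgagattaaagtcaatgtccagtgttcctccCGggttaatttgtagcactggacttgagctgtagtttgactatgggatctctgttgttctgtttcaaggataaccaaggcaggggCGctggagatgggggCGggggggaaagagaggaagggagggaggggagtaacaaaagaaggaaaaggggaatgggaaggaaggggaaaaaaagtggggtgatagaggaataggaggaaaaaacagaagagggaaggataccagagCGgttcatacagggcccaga

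Hoxd10, chr2:74691641-74691940, plus strand: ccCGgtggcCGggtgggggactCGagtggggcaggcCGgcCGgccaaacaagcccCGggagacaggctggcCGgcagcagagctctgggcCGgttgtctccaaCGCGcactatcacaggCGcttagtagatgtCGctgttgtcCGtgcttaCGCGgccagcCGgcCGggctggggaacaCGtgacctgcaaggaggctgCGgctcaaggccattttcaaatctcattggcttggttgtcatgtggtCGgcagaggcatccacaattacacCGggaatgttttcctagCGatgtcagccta

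Hoxd1, chr2:74762730-74763029, plus strand: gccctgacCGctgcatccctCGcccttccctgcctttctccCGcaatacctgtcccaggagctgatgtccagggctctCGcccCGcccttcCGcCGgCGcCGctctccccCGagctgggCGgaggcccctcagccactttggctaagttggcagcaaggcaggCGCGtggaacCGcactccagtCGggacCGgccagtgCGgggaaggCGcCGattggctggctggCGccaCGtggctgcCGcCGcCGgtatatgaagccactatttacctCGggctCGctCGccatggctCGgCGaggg

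The Hoxd13 window held 37 CG dinucleotides and that of Hoxa9 held 4. The window of Hoxd1, which had 1 count in all 12 mutants at 8 months, held 29, more than the 22 in the window of Hoxd10, the member with the most. CG density in these windows therefore did not order the 4 genes as their RNA levels did. The Hoxd10 start used here lies inside the RefSeq span of the gene (chr2:74684273-74695106), which begins farther upstream. RefSeq promoters matched 22 of the 39 members with 24 windows, whose median was 14.5 CG dinucleotides (range 4 to 45). The median over all 32851 windows of the table was 7 (quartiles 3 and 20). The motif TATAAA, searched on both strands like the other motifs, was found in 16.7% of the HOX windows and 13.6% of all windows. CCAAT was found in 62.5% and 37.4%. TGATNNAT, a core of sites bound by HOX and PBX proteins together, was found in 16.7% and 8.85%. Of the 4 windows printed, that of Hoxd13 held TATAAA and CCAAT, those of Hoxd10 and Hoxd1 held CCAAT, and that of Hoxa9 held none of the 3 motifs.

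Total counts per library ran from 1644460 to 12250492, so that 3 counts, the limit taken for detection, stood for 0.238 to 1.86 CPM (counts scaled to a library total of 1000000, with TMM factors over all 51 libraries). Eed itself was not lower in any mutant group. Its level was 13.4 ± 3.17 CPM (SD, n = 8) in wt and 22.5 ± 9.36 CPM (SD, n = 8) in mutant mDA neurons at 8 months, and the log2 difference of 0.60 had an adjusted p of 0.271 (edgeR). A count over the whole gene does not check a deletion of part of it. Defining markers of the labelled type were present in every group, and 6 of 7 dopaminergic markers in mDA and 2 of 7 serotonergic markers in 5HT neurons were lower in mutants at 8 months. The 7 dopaminergic markers summed to 7680 ± 1277 CPM (SD, n = 8) in wt and 3337 ± 314 CPM (SD, n = 8) in mutant mDA neurons. The 7 serotonergic markers summed to 6067 ± 650 CPM (SD, n = 4) in wt and 1318 ± 177 CPM (SD, n = 4) in mutant 5HT neurons. In bulk RNA of sorted cells, fewer cells of a type and less RNA per cell cannot be told apart.

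In wt neurons HOX RNA was close to the limit of detection. The HOX genes together summed to 9.57 ± 3.47 CPM (SD, n = 9) in mDA and 14.3 ± 9.94 CPM (SD, n = 4) in 5HT neurons at 4 months. At 8 months the sum was 8.64 ± 2.60 CPM (SD, n = 4) in 5HT neurons and 15.31 ± 13.66 CPM (SD, n = 8) in mDA neurons. The mDA value rested on animal C250, whose HOX genes summed to 48.1 CPM, and was 10.6 ± 3.57 CPM (SD, n = 7) without it. In no wt group did any member reach a mean of 5 CPM. Hoxa9 was the highest at 1.76 ± 1.61 CPM (SD, n = 8) in mDA neurons at 8 months. No single member led: the 9 wt mDA libraries at 4 months had 9 different members as their most abundant HOX gene. Between wt mDA and wt 5HT neurons 0 of 39 members had enough counts to be tested in the edgeR fit, where 21.9% of tested genes were called.

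**Figure D1:**
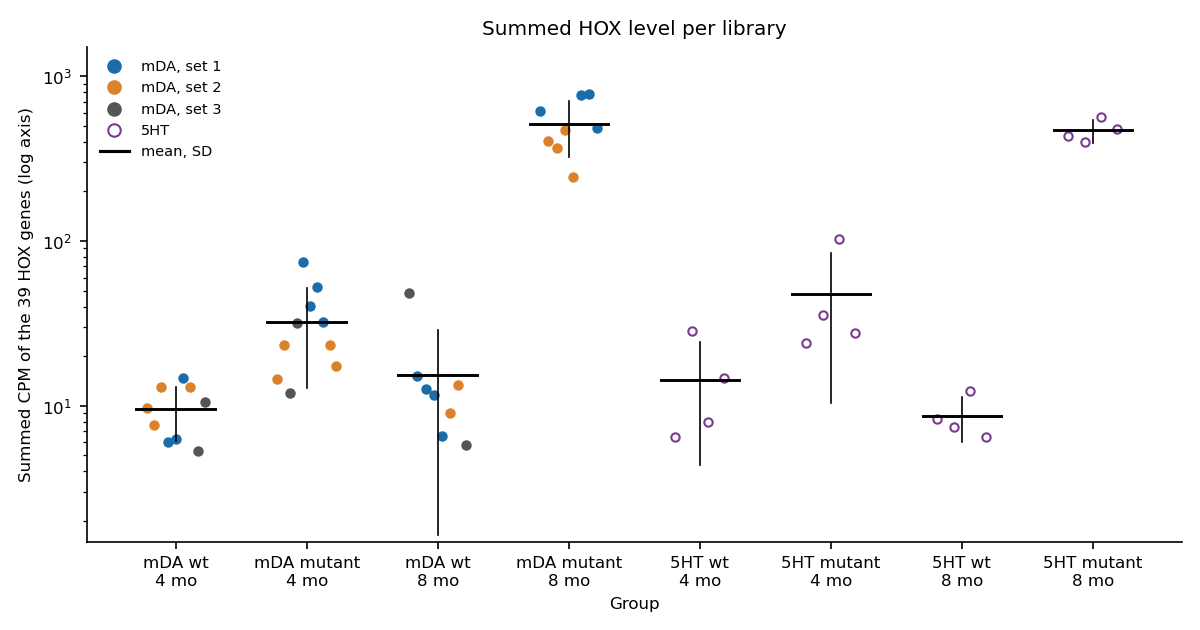
Summed CPM of the 39 HOX genes in each of the 51 libraries on a log axis, by neuron type, month and genotype, with the mean and SD of each group; colours mark the sequencing set in mDA, and open circles are 5HT libraries. The 8-month mutants lie between 243 and 773 CPM and above every other library, and among the wt libraries C250 stands highest at 48.1 CPM.

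In mDA neurons at 4 months a few HOX genes had begun to rise in mutants, all at low levels. The HOX sum was 32.2 ± 19.4 CPM (SD, n = 10) in mutants, 3.37 times the wt mean. Hoxc8, Hoxa7 and Hoxa10 rose, 3 of the 22 members tested, and 0 fell, where 0.577% of all tested genes were called higher and 0.596% lower. Of the 22 members, 8 were past an unadjusted p of 0.05, as were 14.5% of all tested genes. Over all 39 members, fitted without the filter on low counts, 33 had a positive log2 fold change, with a median of 1.06. All 3 are genes of the middle and posterior axis: Hoxc8 acts in brachial motor neurons and ribs, Hoxa7 in thoracic patterning, and Hoxa10 in lumbar patterning and the uterus.

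Hoxc8 ran from 0 to 1.79 CPM with a median of 0 in the 9 wt libraries, and from 0 to 6.62 CPM with a median of 2.54 CPM in the 10 mutant libraries. The groups overlapped, and 1 mutant had no Hoxc8 count. The log2 fold change was 3.12 ± 0.60 (SE) with an adjusted p of 0.00335 by edgeR (quasi-likelihood, Benjamini-Hochberg adjusted over all tested genes), as for every adjusted p given here. Hoxa7 ran from 0.193 to 1.32 CPM (median 0.286) in wt and from 0.619 to 13.2 CPM (median 3.05) in mutants. Animal D186 stood at the top of that range and the next highest mutant was at 6.43 CPM. The Hoxa7 log2 fold change was 2.64 ± 0.66 (SE, adjusted p 0.0343). Hoxa10 ran from 0 to 0.897 CPM (median 0.288) in wt and from 0 to 4.54 CPM (median 1.97) in mutants, a log2 fold change of 2.38 ± 0.55 (SE, adjusted p 0.0214). The groups overlapped for these genes too. For 0 of the 39 members did every mutant library lie above every wt library, or below, where 0.0505% of all genes with a count had every mutant above wt.

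The early signal was largest in the mutants of set 1. The HOX sum was 49.95 ± 18.55 CPM (SD, n = 4; 32.4 to 74.9) in set 1 mutants, 19.7 ± 4.5 CPM (SD, n = 4; 14.5 to 23.5) in set 2 mutants and 22.0 ± 14.2 CPM (SD, n = 2) in set 3 mutants. Without the 4 set 1 mutants edgeR called 0 members of 27 tested, where 0.121% of all tested genes were called higher. Hoxc8 then had a log2 fold change of 2.71 (adjusted p 0.141), Hoxa7 1.95 (adjusted p 0.616) and Hoxa10 2.18 (adjusted p 0.222). In set 1 alone 2 members were called, Hoxa7 and Hoxa9, where 5.01% of all tested genes were called higher. In set 2 alone no member had enough counts for the test. Set 1 mutants at this month were all female and set 1 wt all male.

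Which HOX gene led differed from mutant to mutant at 4 months. Hoxa7 was the most abundant member in 3 of the 10 mDA mutants, Hoxa10 and Hoxc8 in 2 each, and Hoxa9, Hoxb1 and Hoxb5 in 1 each. These leaders rested on 5 to 33 counts, and they took 13.2% to 30.5% of a library's HOX sum. Hoxb1, a hindbrain gene of the segment that makes facial motor neurons, ran from 0 to 5.44 CPM at 4 months and from 0 to 2.25 CPM in the mutants at 8 months. Its mean of 1.78 CPM at 4 months was not below the 1.002 CPM at 8 months. Each mDA mutant at 4 months had 0 to 3 members at 5 CPM or more.

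At 8 months HOX RNA was present from all 4 clusters in every mDA mutant. The HOX sum was 515 ± 190 CPM (SD, n = 8; lowest 243, median 477, highest 773), 33.6 times the wt mean. Every library had 32 to 38 of the 39 members with counts, and 17 to 27 members at 5 CPM or more. All 22 tested members rose and 0 fell, beside 2.44% of all tested genes called higher and 1.88% lower. The members passed the filter on low counts only through this group, so that count cannot be read as support. Fitted without the filter, edgeR called 29 of 39 members higher and 0 lower, and 38 had a positive fold change, with a median log2 fold change of 5.22. Of all genes in that fit 1.62% were called higher. The called members were 7 of 11 in cluster a, 7 of 10 in b, 8 of 9 in c and 7 of 9 in d. By paralog number they were 6 of 12 in groups 1 to 4, 10 of 11 in groups 5 to 8 and 13 of 16 in groups 9 to 13. For 22 of the 39 members every mutant library lay above every wt library and for 0 below, where 0.613% of all genes with a count had every mutant above wt.

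**Figure D2:**
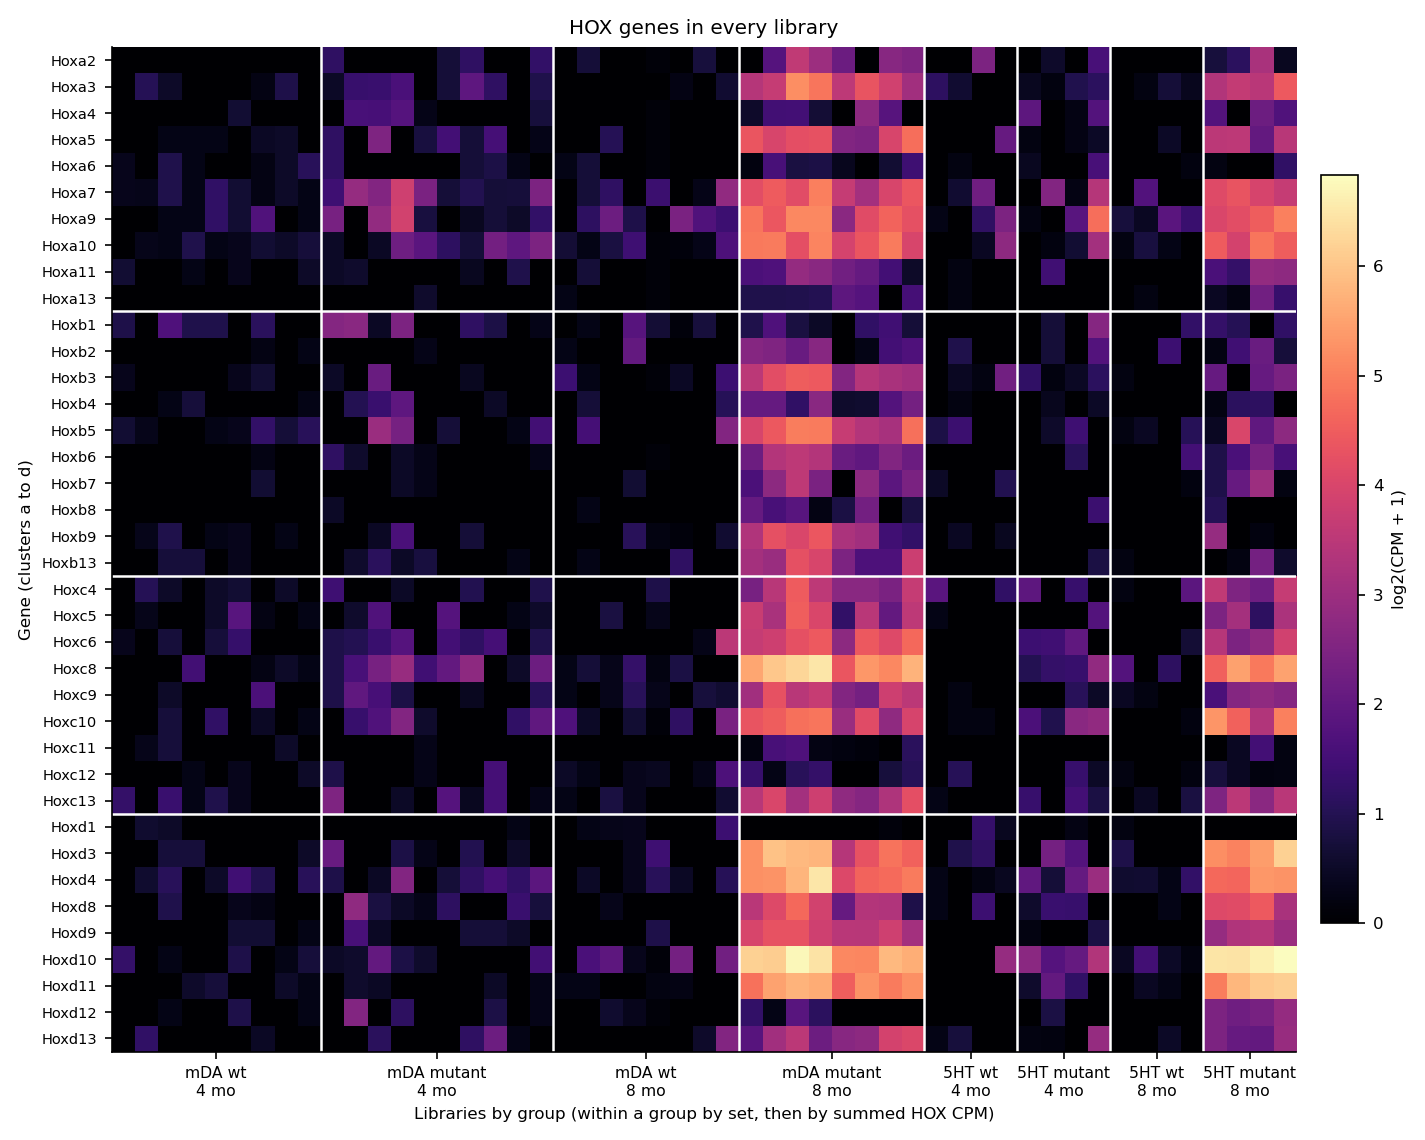
Level of the HOX genes, as log2 of CPM plus 1, in each of the 51 libraries; genes are ordered by cluster and paralog number, libraries by group. The 8-month mutants of both neuron types show rows filled in all 4 clusters, while the 4-month mutants show single genes that differ from library to library.

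Of the clusters, d gave the largest part of the RNA, at 208.9 ± 81.0 CPM (SD, n = 8). Cluster c was at a mean of 128.1 CPM, cluster a at 108.8 CPM and cluster b at 68.95 CPM. The posterior genes of cluster d pattern the limb, lower trunk and genital tract. Hoxd10, a lumbar motor neuron gene, was at 0 to 4.04 CPM (median 1.18) in the 8 wt libraries. In the mutants it was at 33.6, 34.3, 49.7 and 56.4 CPM in the 4 libraries of set 2 and at 68.3, 72.1, 85.7 and 106 CPM in the 4 libraries of set 1. Every mutant lay above every wt library, and the sets did not overlap. The log2 fold change of Hoxd10 was 5.21 ± 0.70 (SE, adjusted p 2.38e-06). Hoxd11, which shapes the forearm and the lumbosacral spine, was at 0 to 0.208 CPM in wt and at 22.0 to 53.3 CPM (median 37.5) in mutants. It rose by 7.52 ± 0.60 in log2 units (SE, adjusted p 4.49e-12). Hoxd13, the digit and genital tract gene whose promoter is the most CG-rich of those printed, was at 2.57 to 15.5 CPM (median 6.56) in mutants. Its wt libraries were at 0 to 0.464 CPM except for C250 at 4.92 CPM, so the groups overlapped in that animal alone. As fitted, with C250 outside the contrast, the Hoxd13 log2 fold change was 8.78 ± 1.41 (SE, adjusted p 4.82e-05).

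The anterior and middle members of cluster d rose as well. Hoxd4 and Hoxd3, genes of the hindbrain and neck, were at 15.9 to 88.9 CPM (median 33.5) and 9.52 to 61.1 CPM (median 32.2) in mutants, and at 0 to 1.10 CPM and 0 to 1.69 CPM in wt. Their log2 fold changes were 6.21 ± 0.74 (SE, adjusted p 8.77e-08) for Hoxd4 and 5.92 ± 0.79 (SE, adjusted p 1.14e-06) for Hoxd3. Hoxd8, a gene of the trunk, was at 0.848 to 24.5 CPM (median 9.77) in mutants and at 0 to 0.258 CPM in wt. Over the group that was 556 counts in mutants against 1 in wt, a ratio of 407 after scaling to the totals, with a 95% interval of 72.7 to 16100 that covers counting error only. The Hoxd8 log2 fold change was 8.05 ± 1.14 (SE, adjusted p 3.53e-06).

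Cluster c was led by Hoxc8, which was at 0 to 1.41 CPM (median 0.231) in wt and at 19.7 to 89.7 CPM (median 49.7) in mutants. The groups were far apart, with a log2 fold change of 6.14 ± 0.60 (SE, adjusted p 9.53e-10). Hoxc6, a brachial motor neuron gene, had the largest fold change of the tested members, 9.27 ± 1.18 (SE, adjusted p 7.53e-07). It was at 5.63 to 24.8 CPM (median 17.2) in mutants. In wt it was at 0 to 0.232 CPM except in C250, where 10.4 CPM put the library inside the mutant range. C250 did not enter that contrast. Over all 8 wt libraries the scaled ratio of counts was 35.8 for Hoxc6 (95% counting interval 23.1 to 58.9) and 34.1 for Hoxd13 (18.9 to 68.8), below the ratios of Hoxd8 and Hoxa3.

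Cluster a was led by Hoxa10, which was at 0.0847 to 2.19 CPM (median 0.423) in wt and at 14.4 to 32.9 CPM (median 24.5) in mutants, without overlap, and its log2 fold change was 5.83 ± 0.66 (SE, adjusted p 3.69e-08). Hoxa3, a gene of the pharyngeal arches and neck, was at 0 to 0.547 CPM in wt and at 7.42 to 36.4 CPM (median 12.6) in mutants. It had 961 counts over the mutants and 3 over wt, a scaled ratio of 234 with a 95% counting interval of 80.0 to 1140, and its log2 fold change was 7.62 ± 0.98 (SE, adjusted p 5.03e-07). Hoxa5, which acts in the lung and the cervical spine, rose from 0 to 1.03 CPM in wt to 4.54 to 26.1 CPM (median 16.3) in mutants, by 6.14 ± 0.95 in log2 units (SE, adjusted p 1.98e-05). Hoxa9, known from thoracic patterning and leukaemia, rose least of the called members. It was at 0 to 4.43 CPM (median 1.45) in wt and at 5.55 to 34.4 CPM (median 21.7) in mutants, a log2 fold change of 3.44 ± 0.84 (SE, adjusted p 0.0101). Its wt level was the highest of any member, so the small fold does not stand for a low level in mutants.

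Cluster b was led by Hoxb5, known from the neural crest and the enteric nervous system, at 0 to 4.92 CPM (median 0) in wt and 8.04 to 30.8 CPM (median 17.6) in mutants. Its log2 fold change was 5.96 ± 1.09 (SE, adjusted p 0.000263). Hoxb6, a trunk gene, was at 0 to 0.0847 CPM in wt and at 2.99 to 10.5 CPM (median 4.23) in mutants, with 315 counts against 1. The scaled ratio was 231 with a 95% counting interval of 41.1 to 9130, and the log2 fold change was 6.85 ± 0.99 (SE, adjusted p 5.90e-06). Hoxb9 and Hoxb13 did not pass the filter in the fit of all libraries. Without it they had log2 fold changes of 5.34 (adjusted p 0.000133) and 4.36 (adjusted p 0.00724). Hoxb13 lies far from the other members of its cluster and acts in the tail, prostate and distal colon.

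**Figure D3:**
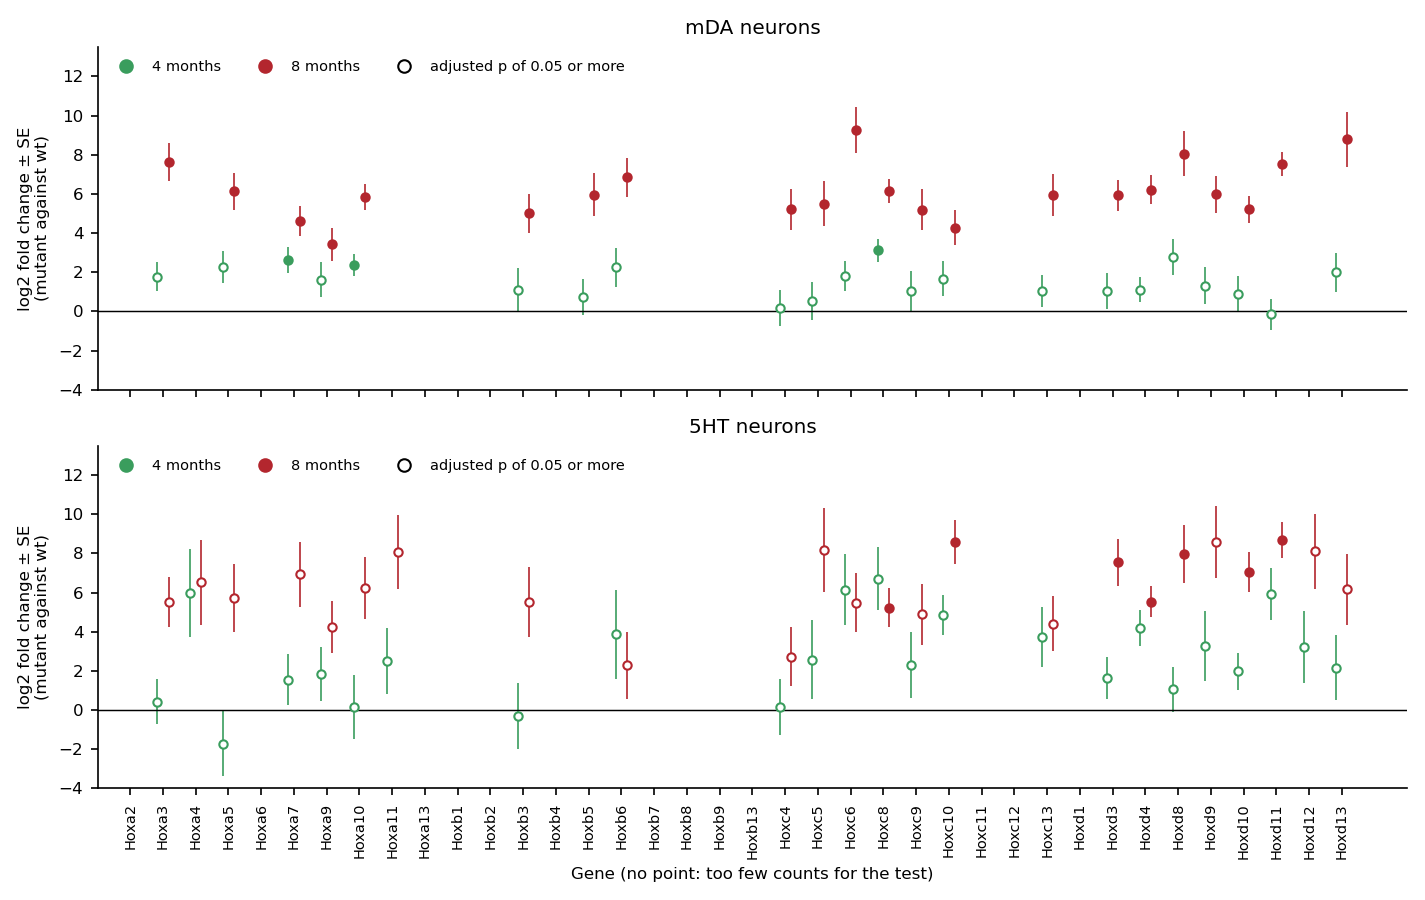
Log2 fold change of the HOX genes, mutant against wt, with its SE, in mDA neurons and in 5HT neurons at 4 months (green) and 8 months (red); filled points have an adjusted p under 0.05 (edgeR), open points 0.05 or more, and genes with too few counts have no point. In mDA neurons all 22 tested members are filled at 8 months and 3 at 4 months, while in 5HT neurons 7 of 24 are filled at 8 months and 0 at 4 months.

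The amount of HOX RNA at 8 months differed with the sequencing set. Set 1 mutants summed to 660 ± 139 CPM (SD, n = 4; 485 to 773) and set 2 mutants to 370 ± 94.8 CPM (SD, n = 4; 243 to 469). The mean was higher in set 1 for 34 of 39 members. In 10 members every set 1 mutant lay above every set 2 mutant (Hoxb2, Hoxb3, Hoxb9, Hoxc10, Hoxd3, Hoxd4, Hoxd8, Hoxd9, Hoxd10 and Hoxd12) and in 0 below, where 3.15% of all genes with a count lay above and 3.53% below. The sets also differed in sex, with 1 male among the 4 set 1 mutants and 3 males among the 4 of set 2, and the 3 males of set 2 were the mutants highest in vascular markers. The part of sex and of the vascular markers in this difference was not tested. In set 1 alone 25 members were called higher, the 22 with Hoxb7, Hoxb9 and Hoxb13, where 2.69% of all tested genes were. In set 2 alone, with 2 wt against 4 mutants, 10 were called of 32 tested, all of them among the 22, where 0.504% of all tested genes were called higher. Members passed the filter in each set through its 8-month mutants, so these counts cannot be read as support. The members called within each set were higher in mutants, and in set 2 the rest of the 22 were not called. The level differed between the sets.

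Markers of other cells moved beside the HOX genes in some mDA mutants. The 7 endothelial and mural markers summed to 4.41 to 37.1 CPM in 8-month wt and to 4.28 to 623 CPM in mutants, with D161, D170 and D176 above 100 CPM and 1 of 7 called. Without those 3 libraries 23 members were called, the 22 and Hoxb13, beside 3.14% of all tested genes called higher. The 8 astrocyte markers summed to 489 ± 127 CPM (SD, n = 8) in wt and 941 ± 590 CPM (SD, n = 8) in mutants, with D176 at 2260 CPM and 2 of 8 called. D176 had the lowest HOX sum of the 8 mutants, 243 CPM, and without it 22 members were called, beside 2.40% of all tested genes called higher. The filter on low counts limits these 2 counts of called members in the same way. The 4 markers of GABA and glycine neurons rose (4 of 4 called), with sums of 180 ± 51.8 CPM (SD, n = 8) in wt and 611 ± 81.9 CPM (SD, n = 8) in mutants, and their part in the HOX result was not tested.

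In 5HT neurons at 4 months no member passed the test, although several were detected only in mutants. edgeR called 0 of 24 tested members, where 0.0128% of all tested genes were called. At an unadjusted p under 0.05 there were 8 members, as were 6.40% of all tested genes. DESeq2 called 4 members (Hoxc8, Hoxc10, Hoxd4 and Hoxd11). Of 15633 tested genes DESeq2 called 48, against 2 in edgeR. The fold change was positive for 22 of 24, with a median of 2.41, or 1.98 with the members without a wt count at their lower bound where one could be given (6 of 7). Over all 39 members without the filter it was positive for 30, with a median of 1.79. Some members had more counts in wt. Hoxa2 had 8 counts over the mutants against 25 in wt, all 25 in animal S374, Hoxd1 had 1 against 9, and Hoxb7 had 0 against 5. Hoxc8 was at 0 in all 4 wt libraries and at 0.989, 1.41, 1.49 and 5.996 CPM in mutants. With 38 counts over the mutants against 0, it was at least 11.9-fold higher against the limit of 3 counts over the wt group, and its adjusted p in edgeR was 0.317. Hoxc10, a lumbar gene like Hoxd10, was at 0 to 0.179 CPM in wt and at 0.938, 2.14, 5.40 and 5.996 CPM in mutants. It had 63 counts against 2, a scaled ratio of 29.6 with a 95% counting interval of 7.86 to 250, and the smallest adjusted p of the members, 0.136. Hoxd4 was at 0 to 0.325 CPM in wt and at 0.6252, 2.97, 3.17 and 6.80 CPM in mutants (adjusted p 0.145). These 3 were the members whose mutants all lay above wt, 3 of 38 with counts, where 1.25% of all genes with a count had every mutant above wt. Hoxd11 had 30 counts over the mutants and 0 over wt, at least 9.40-fold higher, with one mutant at 0, and an adjusted p of 0.212.

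One mutant, the one with the fewest total counts, stood highest in the early 5HT signal. The HOX sum was 47.4 ± 36.9 CPM (SD, n = 4), with S427 at 102 CPM and the other 3 mutants at 24.1 to 35.4 CPM. Before scaling S427 had 256 HOX counts among 2795515, and the other 3 had 146 to 190 among 5259757 to 6047882. Hoxa9 was at 0, 0.165 and 2.61 CPM in the other 3 and at 26.0 CPM, from 65 counts, in S427, where it made up 25.4% of the HOX sum. In wt, animal S369 held Hoxd10 at 6.49 CPM. Without S369 edgeR called Hoxd10, with a log2 fold change of 7.89 (adjusted p 0.0137).

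At 8 months the HOX sums of the 5HT mutants lay within the range of the mDA mutants, with more of the RNA from cluster d. In 5HT mutants the HOX sum was 469 ± 74.0 CPM (SD, n = 4; 398 to 568), 54.3 times the wt mean. That lay between the mDA mutant means of set 1 (660 CPM) and set 2 (370 CPM). edgeR called 7 of 24 tested members higher and 0 lower, where 0.249% of all tested genes were called higher and 0.147% lower. At an unadjusted p under 0.05 there were 22 of 24 members and 4.90% of all tested genes, and DESeq2 called 18. Of 15633 tested genes DESeq2 called 124 higher in this comparison, against 39 in edgeR. Here too members passed the filter through the high mutant group. Without the filter 38 of 39 fold changes were positive, with a median of 5.48. Over the 24 tested the median was 6.21, or 5.51 with the 5 members without a wt count at their lower bound. The 7 were 5 of 8 tested members of cluster d (Hoxd3, Hoxd4, Hoxd8, Hoxd10 and Hoxd11) and 2 of 7 in cluster c (Hoxc8 and Hoxc10), with 0 of 7 in cluster a and 0 of 2 in cluster b. Without the filter 10 were called, with Hoxa3, Hoxa7 and Hoxd9 added, where 0.224% of all genes were called higher. For 23 of 39 members every mutant lay above every wt library and for 0 below, where 3.02% of all genes with a count had every mutant above wt.

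Hoxd10 was at 0.153 to 1.81 CPM in the 4 wt libraries and at 86.1, 88.5, 98.7 and 113 CPM in the 4 mutants. It was the most abundant HOX gene in each of them and rose by 7.05 ± 0.999 in log2 units (SE, adjusted p 0.000732). Hoxd11 was at 0 to 0.361 CPM in wt and at 30.4, 55.3, 65.9 and 70.1 CPM in mutants. Its 1342 counts over the mutants stood against 3 in wt, a scaled ratio of 421 with a 95% counting interval of 144 to 2040, and the log2 fold change was 8.69 ± 0.90 (SE, adjusted p 3.37e-05). Hoxd3 was at 0 to 0.874 CPM in wt and at 32.2, 36.3, 42.5 and 71.8 CPM in mutants, a log2 fold change of 7.54 ± 1.21 (SE, adjusted p 0.00294). In all of these the wt and mutant libraries were far apart.

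Hoxc10 was at 0 to 0.153 CPM in wt and at 9.15, 22.9, 31.5 and 38.9 CPM in mutants. With 605 counts against 1 its scaled ratio was 569, with a 95% counting interval of 102 to 22500, and its log2 fold change was 8.57 ± 1.11 (SE, adjusted p 0.000218). Hoxd4 was at 23.6, 24.5, 38.1 and 39.7 CPM in mutants and rose by 5.54 ± 0.80 in log2 units (SE, adjusted p 0.000845). Hoxd8 was at 0 to 0.208 CPM in wt and at 8.29, 16.1, 16.6 and 20.6 CPM in mutants, with 372 counts against 1. The Hoxd8 ratio was 350 with a 95% counting interval of 62.5 to 13900, and its log2 fold change was 7.98 ± 1.48 (SE, adjusted p 0.0111). Hoxc8 was at 0, 0, 1.25 and 2.45 CPM in wt and at 22.4, 29.3, 43.5 and 44.6 CPM in mutants, the smallest rise of the 7 at 5.23 ± 1.01 (SE, adjusted p 0.0198). The Hoxc8 call was lost on leaving out any of 6 of the 8 animals compared, and the Hoxd8 call on leaving out any of 4, while the direction held for both.

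Members that missed the threshold in 5HT neurons ran from low to high levels, with Hoxa4, Hoxb3 and Hoxb6 at 5 CPM or more in 0 of 4 mutants. Hoxa9, the highest of cluster a by CPM, was at 0.361 to 2.705 CPM in wt and at 15.3, 17.5, 21.4 and 31.7 CPM in mutants, and its log2 fold change of 4.24 had an adjusted p of 0.335. Hoxa10 was at 13.9, 21.3, 21.4 and 28.2 CPM in mutants, with a log2 fold change of 6.25 and an adjusted p of 0.107. Hoxd9 was at 0 in all 8 wt 5HT libraries of both months and at 6.42, 6.80, 9.01 and 9.62 CPM in mutants. Over the group it was at least 60.2-fold higher (adjusted p 0.0597). On simulated data of this size edgeR recovered 41% of 4-fold changes in 5HT neurons at 8 months and 73% in mDA neurons at 8 months. Endothelial and mural markers summed to 74.2 ± 12.4 CPM (SD, n = 4) in wt and 74.4 ± 24.6 CPM (SD, n = 4) in mutant 5HT neurons at 8 months, and astrocyte markers to 706 ± 139 CPM (SD, n = 4) and 639 ± 37.2 CPM (SD, n = 4). Markers of GABA and glycine neurons (2 of 4 called) summed to 220 ± 40.2 CPM (SD, n = 4) and 542 ± 28.5 CPM (SD, n = 4), and their part was not tested.

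The rise in mDA neurons was larger at 8 than at 4 months for 14 of 22 tested members, where 3.76% of all tested genes were called in that direction. The tested members passed the filter through the 8-month mutants, so this count cannot be read as support either. Without the filter the rise was larger at 8 months for 15 of 39, where 2.18% of all genes were called in that direction, and the median difference of the log2 fold changes was 3.96. The 14 were 7 of 7 tested members in cluster d, 4 of 7 in cluster c, 1 of 3 in cluster b and 2 of 5 in cluster a. Hoxd11 had the smallest p, with a difference of 7.68 ± 1.10 (SE, adjusted p 1.82e-05): the mutants were at 0 to 0.495 CPM at 4 months and 22.0 to 53.3 CPM at 8 months. Hoxd4 had a difference of 5.10 ± 0.96 (SE, adjusted p 0.00114) and Hoxc6 one of 7.47 ± 1.44 (SE, adjusted p 0.00187). Hoxa3 followed at 5.84 ± 1.25 (SE, adjusted p 0.00410) and Hoxa10 at 3.45 ± 0.89 (SE, adjusted p 0.0149). In 5HT neurons the same difference was past the threshold for 0 of 24 members in edgeR (9 at an unadjusted p under 0.05, as were 3.97% of all tested genes, with a lowest adjusted p of 0.485), where 0.0128% of all tested genes were called. The median over all 39 without the filter was 4.11. DESeq2 was not run for these differences.

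Mutants of both months were also compared directly. In mDA neurons all 22 tested members were higher at 8 months (4.73% of all tested genes), and 30 of 39 without the filter on low counts (3.35% of all genes), with the set label taken as the same set at both months. In 5HT neurons 3 of 24 were higher (0.115% of all tested genes): Hoxd11 by 5.37 (adjusted p 0.00146), Hoxd10 by 4.27 (adjusted p 0.0302) and Hoxd3 by 4.70 on the log2 scale (adjusted p 0.0468). Without the filter 3 of 39 were higher in 5HT neurons, where 21 of 23626 genes were. Here too the tested members passed the filter through the 8-month mutants, so the 22 of 22 and the 3 of 24 cannot be read as support. The share of the 8-month level already present at 4 months varied between members. In mDA mutants, over members with a mean of at least 5 CPM at 8 months, it was 6.53% to 21.6% in cluster a, 3.05% to 7.23% in cluster b, 4.34% to 9.54% in cluster c and 0.405% to 9.95% in cluster d. Hoxa7 had the highest share and Hoxd11 the lowest. In 5HT mutants it was 2.21% to 33.5% in cluster a, 7.07% to 18.9% in cluster c and 2.22% to 10.8% in cluster d, so the clusters overlapped. The 5HT shares of Hoxa9 (33.5%) and Hoxa7 (23.9%) rested on S427 and were 4.31% and 11.2% without it.

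Per kilobase of exon, which allows levels to be compared between genes, Hoxd10 and Hoxc8 were the highest members in both neuron types at 8 months. Hoxd10 was at 34.8 ± 13.8 CPM per kb (SD, n = 8) in mDA and 53.1 ± 6.68 CPM per kb (SD, n = 4) in 5HT mutants, and Hoxc8 at 28.3 ± 12.3 (SD, n = 8) and 18.7 ± 5.83 CPM per kb (SD, n = 4). Over the 39 genes the levels per kb in the neuron types had a Spearman correlation of 0.885, a description only, since the genes share libraries, lengths and mapping. The paralog number had a correlation of 0.06 with the level per kb in mDA and 0.12 in 5HT mutants, so the level showed no trend along the axis order. Median levels by cluster in mDA mutants were 2.40 CPM per kb in a, 3.53 in b, 4.24 in c and 6.25 in d. By paralog number they were 2.08 CPM per kb in groups 1 to 4, 4.5 in groups 5 to 8 and 4.08 in groups 9 to 13. In 5HT mutants the same medians were 1.12, 3.17 and 1.89 CPM per kb.

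**Figure D4:**
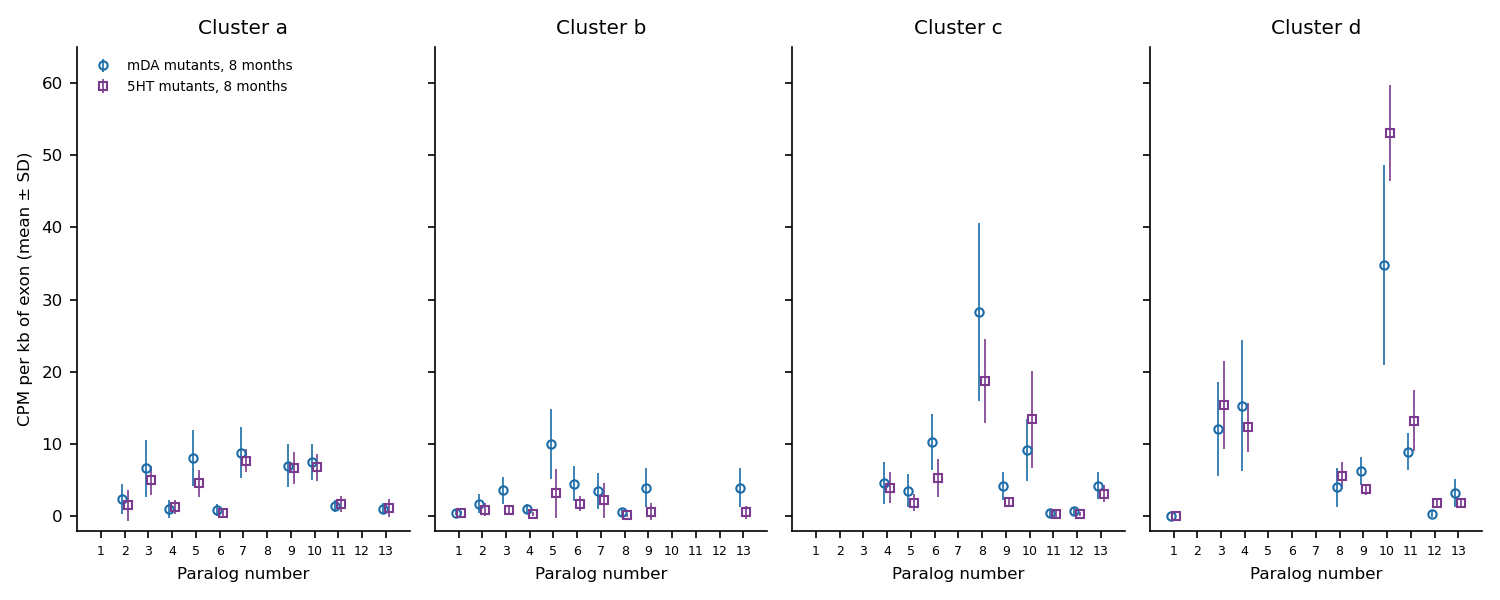
Mean level with SD, in CPM per kb of exon, of the HOX genes in 8-month mutants against their paralog number, in 1 panel for each cluster; circles are mDA (8 libraries) and squares 5HT (4 libraries). Hoxd10 and Hoxc8 stand above their neighbours in both neuron types, and Hoxd1 lies at 0 in 5HT.

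Neighbouring genes could differ widely. In cluster d, on chromosome 2 from 74668225 to 74765142, Hoxd12 lies 1852 bases from Hoxd11 but stayed near the limit of detection in mDA mutants: it was at 0 in all 4 set 2 libraries and at 0.225, 1.21, 1.36 and 2.62 CPM in set 1. In 5HT mutants Hoxd12 was at 3.81, 4.19, 4.51 and 6.30 CPM, and at 0 in all 8 wt libraries of both months, which with 113 counts made it at least 35.5-fold higher than wt at 8 months. At the anterior end of the cluster Hoxd1, a gene of pain-sensing neurons, had 1 count among 60573227 in the 8 mDA mutants. It had 0 among 23470482 in the 4 5HT mutants, which allows up to 0.128 CPM over the group. Hoxd1 had 23 counts over all 51 libraries. Hoxd4 lies 33819 bases from it and was among the highest members. Between them lies the noncoding gene Haglr, and it was detected in the same libraries, as given with the noncoding genes.

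Members at or near the limit of detection were spread over the clusters. At 8 months 11 members reached 5 CPM in all 12 mutants of both types (Hoxa3, Hoxa7, Hoxa9, Hoxa10, Hoxc8, Hoxc10, Hoxd3, Hoxd4, Hoxd9, Hoxd10 and Hoxd11), and 7 reached it in none (Hoxa6, Hoxa13, Hoxb1, Hoxb8, Hoxc11, Hoxc12 and Hoxd1). Among the members tested in neither neuron type, with their counts summed over all 51 libraries, were Hoxa2 (360), Hoxa6 (90), Hoxa13 (141), Hoxb1 (196), Hoxb2, Hoxb4 (184), Hoxb7 (324), Hoxb8 (112), Hoxb9 (591), Hoxb13 (533), Hoxc11 (59), Hoxc12 (94) and Hoxd1 (23). Of these, 7 lie in cluster b. The RefSeq spans of 6 pairs of members overlap (Hoxa3 with Hoxa4, Hoxa5 and Hoxa6, Hoxb3 with Hoxb4, Hoxd3 with Hoxd4, and Hoxd10 with Hoxd11), but 0 of these pairs share exon bases. Hoxa3, Hoxa5, Hoxa6, Hoxa11 and Hoxd3 also overlap long noncoding genes. As the use of strand in counting is not given in the sources used here, reads in those overlaps cannot be assigned to one gene.

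The 8-month mutants of the neuron types differed in how the HOX sum was divided among the clusters. Cluster b took 8.38% to 15.0% (13.1% ± 2.17, SD, n = 8) in mDA and 2.60% to 5.71% (4.36% ± 1.49, SD, n = 4) in 5HT mutants, without overlap. Cluster d took 34.8% to 43.6% (40.5% ± 2.77, SD, n = 8) in mDA and 53.0% to 59.3% (55.6% ± 2.93, SD, n = 4) in 5HT mutants, also without overlap. Cluster a took 21.7% ± 2.69 (SD, n = 8) and 19.6% ± 1.87 (SD, n = 4), and cluster c 24.7% ± 3.40 (SD, n = 8) and 20.5% ± 4.98 (SD, n = 4), with overlapping ranges. Paralog groups 9 to 13 took 46.1% ± 4.01 (SD, n = 8) in mDA and 55.2% ± 1.52 (SD, n = 4) in 5HT mutants. Within mDA the share of cluster b was 12.5% to 15.0% in set 1, the label that the 5HT libraries also carried, and 8.38% to 14.2% in set 2. The share of cluster d was 40.1% to 42.2% in set 1 and 34.8% to 43.6% in set 2. Neither set overlapped the 5HT mutants in these 2 shares.

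**Figure D5:**
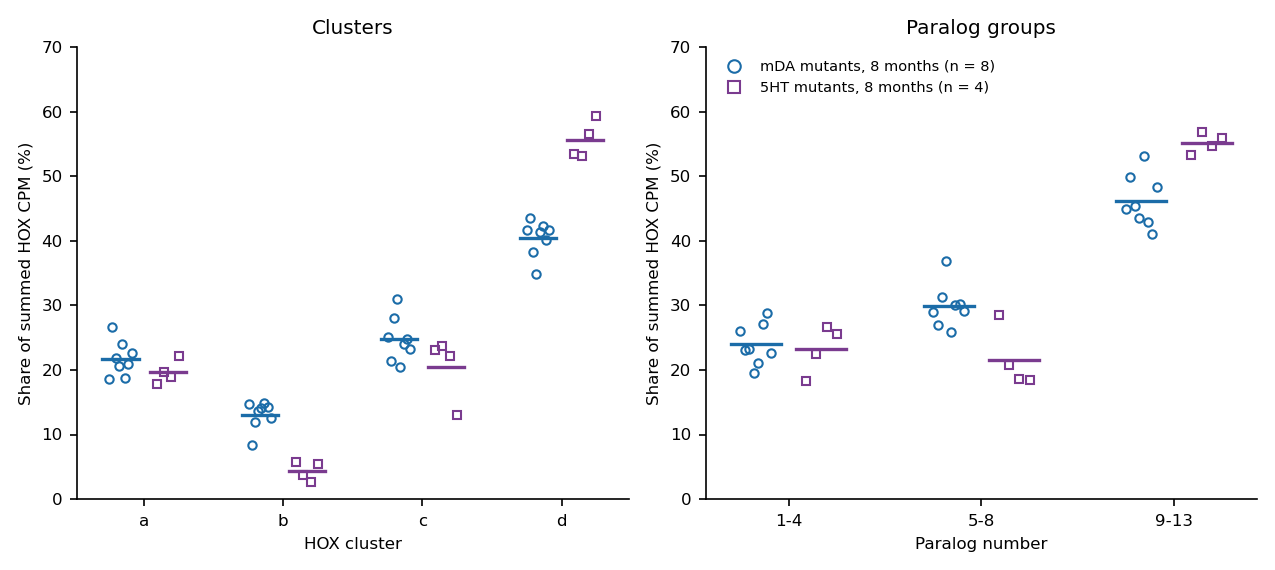
Share of the summed HOX CPM, in percent, by cluster and by paralog group in each 8-month mutant library, with 1 point per library and a line at the mean. The mDA and 5HT libraries do not overlap for cluster b (8.38% to 15.0% against 2.60% to 5.71%) or cluster d (34.8% to 43.6% against 53.0% to 59.3%).

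All 10 members of cluster b had a higher mean in mDA than in 5HT mutants, with a median ratio of 3.54 (1.07 to 7.38). Of cluster a 7 of 11 were higher (median ratio 1.12), of cluster c 8 of 9 (1.52), and of cluster d 3 of 8 (0.746), leaving out Hoxd1. Hoxb5 was at 8.04 to 30.8 CPM in mDA and at 0.347, 2.95, 5.64 and 15.1 CPM in 5HT mutants. Hoxb9 was at 1.38 to 20.01 CPM in mDA and at 0, 0, 0.155 and 6.42 CPM in 5HT mutants. For single genes the ranges often overlapped, but Hoxb3 did not, at 5.00 to 21.7 CPM in mDA and at 0, 3.26, 3.30 and 4.48 CPM in 5HT mutants.

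No member passed a test of the difference between neuron types. For the difference of the genotype effects at 8 months edgeR called 0 of 33 members (4 at an unadjusted p under 0.05, as were 7.69% of all tested genes), where 0.179% of all tested genes were called. The lowest p-values were for Hoxd12, with a log2 difference of −6.84 in mDA minus 5HT (adjusted p 0.406), and Hoxb6, with 4.64 (adjusted p 0.416). At 4 months it called 0 of 33 (7 at an unadjusted p under 0.05, as were 9.46% of all tested genes), where 0.0925% of all tested genes were called, and Hoxd11 had the lowest adjusted p, 0.0994, at −6.00. When the 8-month mutants were compared directly, with no term for the set, edgeR called 0 of 33 (3 at an unadjusted p under 0.05), where 5.41% of all tested genes were called. In that comparison the log2 difference, mDA minus 5HT, was 2.97 ± 1.22 (SE, adjusted p 0.173) for Hoxb13, 2.19 ± 1.09 (SE, adjusted p 0.310) for Hoxb3 and −3.37 ± 1.24 (SE, adjusted p 0.113) for Hoxd12. The 10 members of cluster b were all positive with a median of 1.53, and the median of cluster d was −0.43. DESeq2 was not run for these differences. Strain and neuron type cannot be told apart in these comparisons.

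Noncoding genes inside the clusters with enough counts rose beside the HOX genes in mDA mutants at 8 months. Of the genes lying within the intervals other than the members, 15 were measured and 4 had enough counts in mDA. At 8 months 4 of 4 rose and at 4 months 0 of 4, where 2.44% and 0.577% of all tested genes were called higher. These genes could pass the filter on low counts through the 8-month mutants, where they are high. The 4 of 4 therefore cannot be read as support. Hoxa11os, the antisense transcript of Hoxa11, was at 28.3 ± 15.8 CPM (SD, n = 8; 6.03 to 48.5) in mDA mutants and at a mean of 0.122 CPM in wt (log2 fold change 7.52, adjusted p 4.78e-10). Hoxa11 itself was at 3.19 ± 1.97 CPM (SD, n = 8). The pair share 568 bases of span, in which unstranded counts could not separate them. Mira, a noncoding gene of cluster a, was at 11.4 ± 2.80 CPM (SD, n = 8; 7.87 to 15.7) in mutants and rose by 7.65 (adjusted p 1.14e-06). Haglr, whose RefSeq end lies 83 bases before the Hoxd1 start, was at 13.1 ± 6.73 CPM (SD, n = 8; 3.97 to 21.8) and rose by 6.96 (adjusted p 3.53e-06). Hotair, the noncoding gene of cluster c, was at 10.7 ± 8.12 CPM (SD, n = 8; 0 to 22.5) and rose by 4.90 (adjusted p 0.00997). In 5HT neurons at 8 months 2 of 5 tested rose, where 0.249% of all tested genes were called higher. They were Hoxa11os, by 7.67 (adjusted p 0.0145), and Haglr, by 6.61 (adjusted p 0.0318). The limit set by the filter holds there too.

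Few of the tested neighbours outside the clusters were called between mutants and wt. In mDA 20 were tested, with 1 higher and 1 lower at 4 months, where 0.577% and 0.596% of all tested genes were. At 8 months 1 was higher and 0 lower, where 2.44% and 1.88% were. In 5HT neurons 0 of 21 were called higher or lower at either month. Among the 3 nearest protein-coding genes on each side of each cluster, Evx1, a homeobox gene of spinal interneurons that lies 52617 bases beyond Hoxa13, rose in mDA mutants at both months. It was at 0 to 1.28 CPM in wt and at 1.68 to 6.19 CPM in mutants at 4 months, a log2 rise of 3.16 (adjusted p 0.00997). At 8 months mutants were at 6.74 to 24.3 CPM, and Evx1 rose by 3.63 in log2 units (adjusted p 0.00110). At 4 months Evx1 thus separated the genotypes, which no HOX gene did. In 5HT neurons at 8 months Evx1 was at 9.83 ± 2.07 CPM (SD, n = 4) in mutants and a mean of 0.306 CPM in wt, with a log2 fold change of 5.36 and an adjusted p of 0.258. Evx2, only 6704 bases beyond Hoxd13, was at a mean of 0.495 CPM in mDA mutants at 8 months. Mtx2, 60669 bases beyond Hoxd1, had a log2 fold change of 0.45 there (adjusted p 0.423). The other flanking gene called between mutants and wt was Atp5g1, which fell by 0.59 in mDA at 4 months (adjusted p 0.0460). Other comparisons called more of them. The genotype effect in mDA was higher at 8 than at 4 months for 3 of 20, beside 3.76% of all tested genes. In mDA mutants compared directly 4 of 20 were higher at 8 months, beside 4.73%. Between wt mDA and wt 5HT neurons 2 of 19 were lower in mDA, where 21.9% of tested genes were called in either direction.

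Among the 4 genotype comparisons, partners and upstream regulators of HOX proteins were called only in mDA neurons at 8 months. The 11 TALE genes encode the PBX, MEIS and related cofactors that bind DNA with HOX proteins. There 1 of 11 tested was called higher and 2 lower, where 2.44% of all tested genes were called higher and 1.88% lower. Pbx3 fell from 137 ± 23.6 CPM (SD, n = 8) to 70.7 ± 12.7 CPM (SD, n = 8), a log2 fold change of −0.84 (adjusted p 0.000116). Pknox2 rose from 25.9 CPM to 43.0 CPM (0.88 in log2 units, adjusted p 0.0209). Among 19 regulators of HOX expression and hindbrain patterning, Cyp26b1, which degrades retinoic acid, fell in mDA mutants at 8 months from 12.1 ± 4.34 CPM (SD, n = 8) to 2.03 ± 1.96 CPM (SD, n = 8), a log2 fold change of −2.68 (adjusted p 5.08e-05). It was the only one of them called in any of the 4 genotype comparisons, and 10 of the 19 had enough counts in mDA. Among 8 other homeobox genes of the Antennapedia class, Mnx1, a motor neuron factor, was at 3.50 ± 1.41 CPM (SD, n = 8) in mDA mutants at 8 months and a mean of 0.0318 CPM in wt (log2 fold change 5.62, adjusted p 0.000153). In 5HT mutants at 8 months it was at 2.83 ± 0.855 CPM (SD, n = 4), with 0 in all 4 wt libraries. The 5 cholinergic motor neuron markers, of which Mnx1 is one, summed to 1.23 to 7.65 CPM in wt and 37.2 to 45.9 CPM in mutant mDA neurons at 8 months (2 of 3 tested were called), and their part in the HOX result was not tested.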

How the data were processed

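The values used are raw counts of reads per gene in a single deposited table (24564 genes, 51 libraries). The submitters' processing notes name STAR 2.7.0a and mm10 (GRCm38). How reads were counted, and whether by strand, is not given in the sources used here. Groups, sets and sex follow the labels, all columns were used (0 left out), and each replicate is a separate animal. No identical columns were found (0 pairs), and counts of replicates differed beyond sampling noise (chi-square per degree of freedom of 6.97 or more). The reporter row, 0.00294% of counts or less, entered neither library sizes nor tests.

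The test was edgeR 4.0.16 in R 4.3.3: a robust quasi-likelihood fit after TMM scaling, on genes kept by filterByExpr (groups given, min.count 10), with calls at a Benjamini-Hochberg adjusted p under 0.05 over all genes tested. The 35 mDA libraries were fitted together with terms for set within month and sex, the 16 5HT libraries with a term for sex, and all 51 libraries for differences between neuron types. Mutants of both months were compared in mDA with the set label shared over months. The 25 wt libraries were fitted with terms for sex and month. Standard errors were approximated from the fold change and its F statistic. DESeq2 1.42.0, size-factor (RLE) scaling, no filter, fits without the sex or set term, single sets and left-out libraries were tried as alternatives. Comparing 8-month mutants directly, leaving out libraries high in vascular markers, sums without TMM scaling and the wt sum without C250 were added after seeing the data. Tested on simulated data, the edgeR fit recovered 58% of 2-fold and 88% of 4-fold changes in mDA at 4 months, 43% and 73% in mDA at 8 months, 8% and 49% in 5HT at 4 months and 10% and 41% in 5HT at 8 months.

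For a member with 0 wt counts the fold is a lower bound, taken against 3 counts over the wt group; with 1 to 3 wt counts a ratio and its 95% counting interval are given. Smart-seq2 reads carry no molecular tags, so intervals and limits cover counting error only. Members and gene lists were chosen with earlier results of these data known. Values are given for called members (all where 5 or fewer, else the 8 largest and the smallest change), the highest member of each cluster, the smallest p-values of each difference, untested members by name, and up to 3 called genes per list. Members that stand apart, such as Hoxd1, Hoxd12, Hoxd9, Hoxb1, Hoxb3, Hoxb9 and Hoxb13, were picked after their values were seen. A few genes that these rules select are not reported here by name, nor shown in gene-level plots.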

Additional observations from a re-analysis of the deposited data

Results flagged for a closer look

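Values far from the rest of their group were looked for in 164 groups of 4 to 10 libraries, and 48 were found, where chance gives about 1 in 20 groups. They were mostly in groups near the limit of detection. Among wt mDA animals at 8 months C250 stood apart with a HOX sum of 48.1 CPM, a cluster c sum of 18.0 CPM, a cluster d sum of 11.5 CPM, Hoxc6 at 10.4 CPM and Hoxa7 at 6.01 CPM. Among mDA mutants at 4 months D186 stood apart with a cluster a sum of 36.0 CPM, Hoxa7 at 13.2 CPM and Hoxa9 at 13.66 CPM, and D187 with Hoxd8 at 5.94 CPM. Among 5HT mutants at 4 months S427 stood apart with a HOX sum of 102.3 CPM and a cluster a sum of 51.6 CPM. Its Hoxa9 was at 26.0 CPM, Hoxa10 at 7.595 CPM, Hoxd13 at 6.396 CPM and Hoxc8 at 5.996 CPM. Among 5HT wt animals at 4 months S369 stood apart with Hoxd10 at 6.49 CPM and Hoxa10 at 5.84 CPM. C250 (1644460 total counts), S427 (2795515) and S369 (3211468) had the lowest total counts of their groups, and the part of depth was not tested.

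The genotype effect in mDA neurons differed between 8 and 4 months for 14 of 22 tested HOX genes by the test of the difference itself. Of all tested genes 3.76% were called in that direction. The tested members passed the filter through the 8-month mutants, so the count cannot be read as support. Without the filter it was 15 of 39 members, where 2.18% of all genes were called in that direction.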

How the results depend on the processing

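No paired analysis was possible because the labels number each animal and share no replicate number between the groups compared. Of 57 recounts of called HOX genes under an alternative, 51 came within 1.5 times the value given. The others were in the 4 genotype comparisons. In mDA at 4 months 0 members were called without the 4 set 1 mutants. In mDA at 8 months set 2 alone gave 10. In 5HT at 4 months DESeq2 gave 4, no filter on low counts 1 (Hoxd11) and leaving out S369 1 (Hoxd10), with 0 to 1 over all left-out animals. In 5HT at 8 months DESeq2 gave 18, and leaving out single animals 5 to 7. Fewer samples enter each of the single-set and left-out fits, and beyond that the cause was not tested. In mDA DESeq2 called 3 and 22 members, as edgeR did. Of 15425 tested genes in mDA DESeq2 called 352 at 4 months and 1060 at 8 months, against 181 and 666 in edgeR. Set 2 alone in mDA at 4 months gave no value, since no member passed the filter. RLE scaling moved the split of all calls in mDA from 49.2% to 63.2% higher at 4 months, and from 61.6% to 51.7% higher for the difference between months, while the number of HOX calls did not change. Fold changes that changed sign were Hoxa9 at −0.26 and Hoxb5 at −0.94 in mDA at 4 months without the 4 set 1 mutants (1.62 and 0.72 with them). In 5HT at 4 months Hoxa9 (1.84) was at −0.78 without S427, and Hoxa10 (0.15) was at −0.24 without S367, −0.73 without S373, −0.62 without S374 and −2.465 without S427. At 4 months leaving out S369 moved Hoxa9 to 3.78 and Hoxa10 to 3.79. None of these was called in either fit. No fold change of a named member at 8 months changed sign under any alternative run. Depth limits the members with under 3 counts in a library, which is most of them in wt and at 4 months.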
